A study of Homo sapiens with 27 samples.

Results

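The genes of mitosis, the kinetochore and the spindle were taken as a set of 44 genes out of 19775 genes that had a probe set with a single gene symbol. Members were picked by symbol, and every probe set annotated with 1 of these symbols alone belonged to the set, which gave 88 of 54675 probe sets. The probe set with the highest mean over all arrays stood for a gene. Values are GC-RMA levels on a log2 scale, on which a difference of 1 is a 2-fold change. A filter for variation across the arrays kept 75 of the 88 probe sets, and 43 of the 44 genes were tested. The 1 that did not pass was CDC20, and its levels are given without a test.

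Gene expression was measured on 27 arrays in established cell lines of 3 tumor types, PC-3 from prostate cancer, SK-OV-3 from ovarian cancer and WM793B from melanoma. In each line there were 3 biological replicas of control cells, which stayed at 21% oxygen for 72 h, 3 of chronic hypoxia, at 1% oxygen for 72 h, and 3 of cycling hypoxia. The cycling cultures went through hypoxic periods of 4 h and 12 h at 1% oxygen, with periods of 4 h at 21% oxygen between them, for 72 h in all, and by the study's methods they ended with reoxygenation. The lines were grown on glass in different media, WM793B in one with less serum, so that line and medium cannot be told apart when the lines are compared. PC-3 and SK-OV-3 cells expressed the epithelial markers EPCAM, CDH1, KRT8, KRT18 and KRT19 on every array. In WM793B cells SOX10 (10.12 to 10.59) and S100B were high, while the pigment cell genes MLANA, PMEL, TYR and TYRP1 lay at or close to the lowest value found on any array. PC-3 cells expressed HOXB13, with the prostate genes KLK3 and KLK2 below 5 (log2), the level under which a signal is called dim here (the dim level). SK-OV-3 cells expressed PAX8 and ESR1, with MUC16 at the lowest value. WT1, a marker of ovarian tumors, was under the dim level on every SK-OV-3 array (2.76 to 4.29) and read 5.40 to 6.87 in WM793B and 4.90 to 6.17 in PC-3 cells. MITF, the regulator of pigment cells, was expressed in all lines, at 9.15 to 9.60 in SK-OV-3, 8.21 to 8.56 in WM793B and 7.43 to 7.86 in PC-3 cells.

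To divide, a cell makes mitotic cyclins late in the cycle, activates CDK1 with them, condenses its chromosomes, captures each one by its kinetochore on a spindle of microtubules, and cleaves in cytokinesis. The messages of most of these proteins are made in G2 and M phase and are low in cells that rest or are early in the cycle. Their transcription is held down in resting cells by the DREAM complex and driven in dividing cells by MYB and FOXM1 complexes, through a promoter element known as the cell cycle genes homology region (CHR), and by NF-Y through CCAAT boxes. In array data of whole cultures, fewer cells in G2 and M phase and less message per dividing cell cannot be told apart, and cell cycle measurements by flow cytometry were not analysed here.

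Promoter windows from RefSeq (GRCh38.p14), from 250 bases before to 50 bases after an annotated start, were given for 37 of the 44 genes, 49 windows in all, and AURKA, TTK, UBE2C, TPX2, FAM83D, BIRC5 and FOXM1 had none. The CHR was searched as TTTGAA or TTCGAA on either strand, and NF-Y's box as CCAAT on either strand. A CHR match was found in 32 of the 49 windows (65.3%), against 16.4% of all 35116 windows of the table. A CCAAT match was found in 36 windows (73.5%), against 34.6% of all windows. E2F sites (GGCGGGAA, TTTGGCGC, TTTCGCGC or TTTCCCGC) were found in 7 windows (14.3% against 5.03%). The shorter GGCGC, the core of the element that often lies beside a CHR and a part of some of these E2F sites, was found in 42 (85.7% against 48.6%). The core of the hypoxia response element, ACGTG or GCGTG, was found in 29 windows (59.2% against 48.4%). Among 24 windows of 17 genes of the G1 to S transition and replication, 1 held a CHR match, 12 an E2F site, 17 a CCAAT match and 22 GGCGC. CHR matches were in 80.0% of the windows of other spindle and cytokinesis genes and 42.3% of those of condensin, cohesin and separase genes. The share was 41.4% for other kinetochore and centromere genes, 36.0% for genes of entry into mitosis and control of G2 to M, and 19.2% for those of the anaphase-promoting complex. The 110 bases before the start are shown for 7 genes, of which all but CCNB2 are named in the comparisons below. Capitals mark matches to the CHR (TTTGAA or its reverse complement TTCAAA), to the NF-Y box (CCAAT or ATTGG) and to an E2F site.
CCNB2, chr15:59105036-59105145, plus strand: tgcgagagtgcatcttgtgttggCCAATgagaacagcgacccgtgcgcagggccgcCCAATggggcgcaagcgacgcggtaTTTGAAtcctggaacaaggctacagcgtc
PLK1, chr16:23678779-23678888, plus strand: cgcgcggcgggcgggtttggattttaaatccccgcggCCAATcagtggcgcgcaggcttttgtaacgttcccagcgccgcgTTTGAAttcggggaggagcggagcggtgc
KIF11, chr10:92593020-92593129, plus strand: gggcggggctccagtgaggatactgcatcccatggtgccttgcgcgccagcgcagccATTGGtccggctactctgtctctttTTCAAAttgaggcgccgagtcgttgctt
SPC25, chr2:168890431-168890540, minus strand: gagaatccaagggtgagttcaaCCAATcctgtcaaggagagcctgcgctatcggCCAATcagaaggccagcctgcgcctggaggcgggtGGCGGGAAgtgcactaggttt
HMMR, chr5:163460522-163460631, plus strand: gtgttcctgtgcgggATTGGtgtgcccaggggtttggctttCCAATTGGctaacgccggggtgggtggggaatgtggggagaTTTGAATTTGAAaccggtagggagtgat
ANLN, chr7:36389752-36389861, plus strand: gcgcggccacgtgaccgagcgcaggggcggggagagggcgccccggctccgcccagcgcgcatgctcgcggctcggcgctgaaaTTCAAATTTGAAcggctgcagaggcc
MKI67, chr10:128126424-128126533, minus strand: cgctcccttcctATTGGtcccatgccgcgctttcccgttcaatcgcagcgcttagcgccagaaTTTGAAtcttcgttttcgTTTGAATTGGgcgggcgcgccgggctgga

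Counting back from the start as -1, the CHR match began at -29 in CCNB2 and PLK1 and at -28 in KIF11. NF-Y boxes began at -87 and -54 in CCNB2, at -73 in PLK1 and at -53 in KIF11. HMMR, ANLN and MKI67 each held a pair of CHR matches. In SPC25 no whole CHR match lay within the printed bases, but one began at -3 and ran across the start, another began at -247, and an E2F site began at -21. Over all 49 windows, 18 of the CHR matches began within the 50 bases before the start and 13 within the 50 bases after it, while 38 of the matches to the NF-Y box began between -100 and -51. In SK-OV-3 cells, the median log2 difference between chronic hypoxia and control was 1.16 over 28 tested genes with a CHR match in any window and 1.39 over 8 without.

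**Figure D1:**
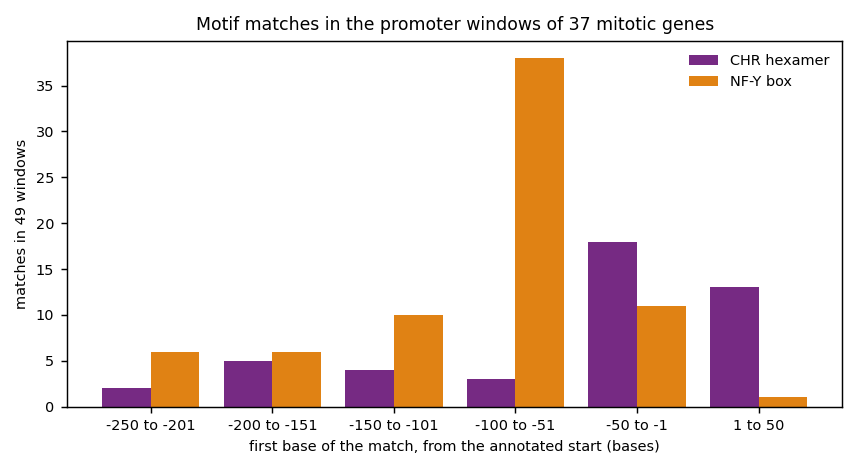
Number of matches to the CHR hexamers (purple) and to the NF-Y box (orange) in the 49 promoter windows of 37 mitotic genes, on the y axis, by the distance in bases of the first base of the match from the annotated start, on the x axis. NF-Y boxes were most frequent between -100 and -51 (38 matches) and CHR hexamers within the last 50 bases before it (18 matches). Genes with several overlapping windows are counted for each.

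At 21% oxygen the lines differed widely in these genes. The median level of the 44 genes was 6.77, 6.79 and 7.09 on the SK-OV-3 control arrays, 8.93 to 9.09 on those of PC-3 and 9.26 to 9.46 on those of WM793B. The groups did not overlap. In PC-3 control cells 42 of 43 genes were higher than in SK-OV-3 control cells and 1 was lower (limma, 3 arrays per group, adjusted p under 0.05), with a median log2 difference of 2.35. Over all 9162 genes tested in this way, 42.3% were higher and 39.3% lower. In WM793B cells 42 were higher and 1 lower than in SK-OV-3 cells, with a median of 2.67, against 41.7% and 42.1% of all genes. The lower 1 in both was CDC25B, a phosphatase that activates CDK1, which stood at 10.76, 10.78 and 10.49 in SK-OV-3 and at 8.91, 8.71 and 8.69 in PC-3 control cells. Between WM793B and PC-3 cells the gap was smaller, with 21 genes higher and 3 lower in WM793B (median 0.57, against 41.1% and 39.4% of all genes). The 3 lower genes were BIRC5, ECT2 and DLGAP5. BUB1, the kinase of the spindle checkpoint, read 8.68, 8.61 and 8.77 in PC-3 and 4.38, 3.52 and 4.05 in SK-OV-3 cells, all 3 of the latter under the dim level. ANLN, which encodes anillin of the cleavage furrow, showed the largest difference between WM793B (12.55, 12.56 and 12.73) and SK-OV-3 cells (7.19, 7.09 and 7.26), a log2 difference of 5.43 with a standard error (SE) of 0.22.

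**Figure D2:**
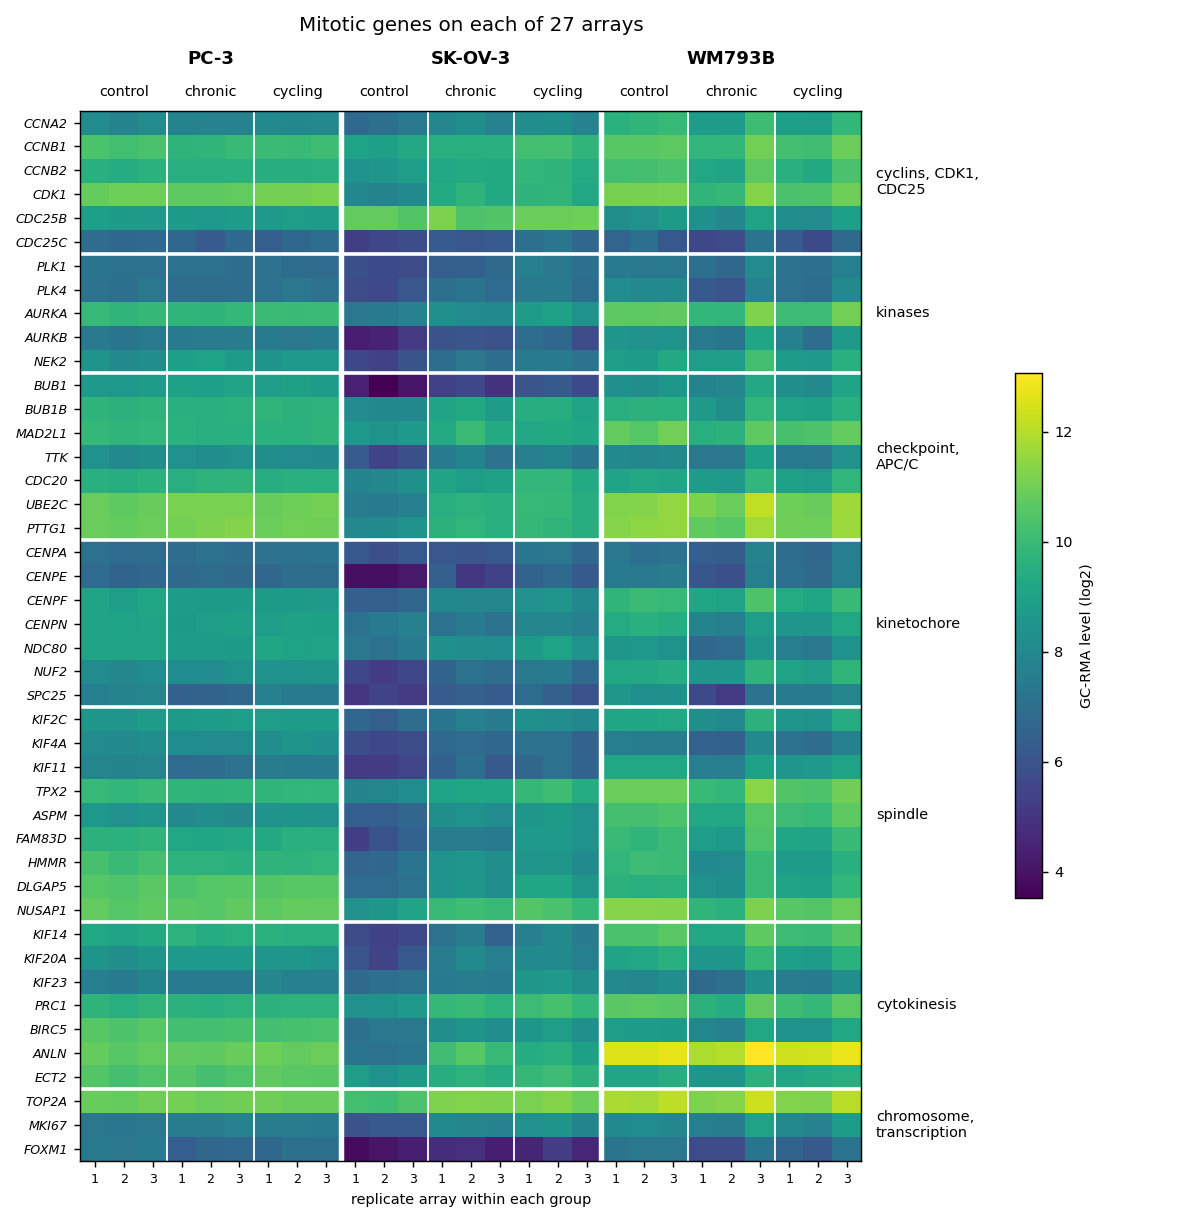
GC-RMA level (log2, color scale) of the 44 mitotic genes (rows, by role) on each of the 27 arrays (columns, by cell line, condition and replicate). SK-OV-3 control arrays are the darkest, with a median of 6.77 to 7.09, and the replicate 3 arrays of chronic and cycling hypoxia in WM793B are brighter than replicates 1 and 2 of their groups.

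Before the hypoxic groups are compared, 2 arrays need a separate description. On replicate 3 of chronic hypoxia in WM793B cells, all 44 genes were higher than on replicates 1 and 2, by a median of 1.38 (0.88 to 1.91). The median level of the set was 9.83 on this array against 8.51 and 8.40 on the other two. Of the 44 genes, 35 were above all 3 control arrays on it, while on replicates 1 and 2 together 42 of the genes were below all 3 controls. Replicate 3 of cycling hypoxia in WM793B cells also read higher than replicates 1 and 2 for all 44 genes, by a median of 0.77, with medians of 8.90, 8.81 and 9.59 on the 3 arrays. Over all probe sets, the chronic replicate 3 correlated with the other two of its group at a mean of 0.9938. This was the lowest such mean of the 27 arrays. The next lowest was 0.9939, for the SK-OV-3 chronic replicate 1, and the highest was 0.9975. Hypoxia targets were raised on the WM793B chronic replicate 3 as well: the median of 9 such genes was 10.93, 10.94 and 11.68 on the chronic arrays and 8.03 to 8.14 on the controls. Genes of the G1 to S transition and replication were lower than in control cells on all 3 chronic arrays, at 5.66, 5.56 and 6.81 against 8.12 to 8.59. In the other lines the array farthest from its group was the cycling replicate 3 of SK-OV-3, with a median gap of -0.44. The main counts of mitotic genes in WM793B cells, and those of most gene lists, are given with and without the chronic replicate 3, and a few also without both of these arrays. Both arrays were picked out by their levels of these same genes, so the counts without them describe the data and are no separate test. The reason for the levels on these arrays was not tested.

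**Figure D3:**
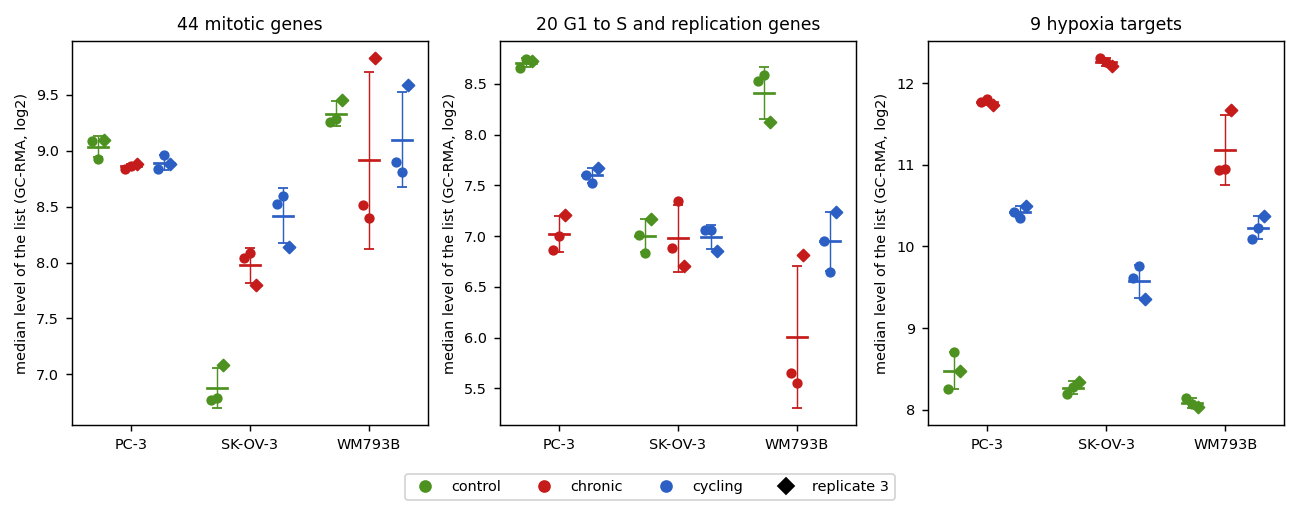
Median GC-RMA level (log2, y axis) over the 44 mitotic genes (left), 20 genes of the G1 to S transition and replication (middle) and 9 hypoxia targets (right) on each array, by cell line (x axis) and condition (color), with the mean (line) and SD (bars) of 3 arrays and diamonds for replicate 3; each panel has its own scale. The mitotic genes rose in SK-OV-3 cells from 6.77 to 7.09 in control cells to 8.14 to 8.60 in cycling hypoxia, while in WM793B cells replicate 3 lay above replicates 1 and 2 in both hypoxic groups.

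In SK-OV-3 cells nearly all of these genes were higher under either kind of hypoxia than in control cells. Under chronic hypoxia 39 of 43 genes rose and none fell (limma, adjusted p under 0.05), with a median log2 difference of 1.21, while 25.1% of all genes tested were higher and 25.0% lower and their median was 0. At least 2-fold rises were found for 29 genes, 67.4% of those tested, against 10.6% of all genes. Under cycling hypoxia 40 rose and none fell, with a median of 1.51, against 19.8% and 16.3% of all genes, and 37 of them (86.0%) rose at least 2-fold, against 6.8%. In each line both comparisons used the same control arrays. The median level of the set was 8.04, 8.09 and 7.80 on the chronic arrays and 8.53, 8.60 and 8.14 on the cycling arrays, and no hypoxic array overlapped with the controls. With each array left out in turn, 36 to 40 genes rose under chronic and 39 to 40 under cycling hypoxia, and none fell.

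Among the mitotic cyclins and their kinase, 5 of 6 genes rose under chronic and 5 under cycling hypoxia in SK-OV-3 cells. CDK1, the kinase that drives entry into mitosis, stood at 7.98, 7.77 and 8.09 in control cells, at 9.37, 9.72 and 9.33 under chronic hypoxia and at 9.73, 9.78 and 9.23 under cycling hypoxia. It rose by 1.53 (SE 0.18, adjusted p = 0.00049) and 1.63 (SE 0.18, adjusted p = 0.00063), with no overlap between control and hypoxic arrays. CCNB1, which encodes its partner cyclin B1, went from 9.04, 8.91 and 9.29 to 9.49, 9.56 and 9.58 in chronic and to 10.18, 10.22 and 9.76 in cycling hypoxia. Its rise was 0.46 (SE 0.14, adjusted p = 0.034) under chronic and 0.97 (SE 0.14, adjusted p = 0.0023) under cycling hypoxia, and the direct comparison gave 0.51 (adjusted p = 0.034). CDC25B, already high in control SK-OV-3 cells, was the member of this group that was not called, with a log2 difference of 0.00 (SE 0.20) under chronic and 0.24 (SE 0.20) under cycling hypoxia.

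All 5 kinases of mitosis and the centrosome rose under both conditions. PLK1, which acts at the centrosome, kinetochore and midbody, read 5.87, 5.68 and 5.73 in control cells, 6.43, 6.46 and 6.82 under chronic hypoxia and 7.66, 7.35 and 7.01 under cycling hypoxia. Its 3 groups did not overlap, and the cycling arrays exceeded the chronic arrays by 0.77 (SE 0.18, adjusted p = 0.016). AURKA, the centrosome kinase Aurora A, rose from 7.32, 7.41 and 7.74 to 8.29, 8.11 and 8.10 and then to 8.81, 9.0 and 8.44. The chronic rise was 0.68 and the cycling rise 1.26 (SE 0.17, adjusted p = 0.014 and 0.0015). A second probe set of AURKA gave -0.11 (SE 0.12) under chronic hypoxia, which was not called, and 0.73 (adjusted p = 0.004) under cycling hypoxia. AURKB, the kinase of the inner centromere, was under the dim level on 2 of 3 control arrays (4.30, 4.43 and 5.10) and over it on every hypoxic array (5.74 to 6.96).

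The 6 tested genes of the spindle checkpoint and the anaphase-promoting complex rose under both conditions. UBE2C, the ubiquitin-conjugating enzyme of that complex, had the largest rise among them, from 7.52, 7.45 and 7.71 in control cells to 9.50, 9.70 and 9.51 under chronic and 9.90, 9.89 and 9.47 under cycling hypoxia. This was a log2 difference of 2.01 (SE 0.14, adjusted p = 4.0e-05) and 2.19 (SE 0.14, adjusted p = 6.9e-05). PTTG1, which encodes securin, the inhibitor of separase, rose by 1.51 and 1.53 (SE 0.15). BUB1 was below the dim level on all control arrays and stood at 5.40, 5.61 and 4.91 under chronic and 6.04, 6.22 and 5.68 under cycling hypoxia. The measured log2 differences were 1.32 and 2.00 (SE 0.27, limma adjusted p = 0.0069 and 0.0017). Set against the dim level in place of the control values, the mean of BUB1 was 1.23-fold higher under chronic hypoxia. This is no strict lower bound, since 1 chronic array was still under that level. Under cycling hypoxia, where every array was over the level, the lower bound was 1.97-fold, and neither value was tested. CDC20, the activator of the complex, was not tested, and read 7.84, 7.96 and 8.31 in control, 9.10, 8.84 and 8.98 in chronic and 9.84, 9.84 and 9.36 in cycling hypoxia, without overlap of any of the groups.

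Of the 7 genes of the centromere and kinetochore, 5 rose under chronic and 6 under cycling hypoxia. CENPF, a large protein of the outer kinetochore, went from 6.44, 6.40 and 6.67 to 7.98, 7.90 and 7.84 and to 8.36, 8.48 and 7.97, rises of 1.40 and 1.77 (SE 0.14). CENPE, the kinesin of the kinetochore, was under the dim level on all control arrays. Its measured log2 differences were 1.61 and 2.52 (SE 0.34, limma adjusted p = 0.0073 and 0.0016). Against that level it was at least 1.54-fold higher under chronic and at least 2.88-fold higher under cycling hypoxia, bounds that were not tested. CENPA, the histone H3 variant that marks the centromere, behaved otherwise. It read 6.15, 5.84 and 6.15 in control cells, 6.10, 6.03 and 6.15 in chronic and 7.28, 7.29 and 6.72 in cycling hypoxia. Its difference was 0.04 (SE 0.17, adjusted p = 0.88) under chronic and 1.05 (SE 0.17, adjusted p = 0.0031) under cycling hypoxia, and the cycling arrays exceeded the chronic arrays by 1.01 (adjusted p = 0.0042). CENPN, which binds CENPA nucleosomes, was called in neither comparison with control cells, with differences of -0.18 and 0.46 (SE 0.17), but was higher in cycling than in chronic hypoxia by 0.64 (adjusted p = 0.028).

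Every one of the 9 spindle motors and assembly factors rose under both conditions. FAM83D, which recruits casein kinase to the spindle, read 5.30, 5.94 and 6.53 in control, 7.51, 7.54 and 7.50 in chronic and 8.65, 8.69 and 8.42 in cycling hypoxia. Its rise of 2.66 (SE 0.28, adjusted p = 0.00052) was the largest of the set under cycling hypoxia, and it was 1.07 higher there than under chronic hypoxia (SE 0.28, adjusted p = 0.025). ASPM, a spindle pole protein, rose by 1.78 and 2.10 (SE 0.12), TPX2, an activator of Aurora A, by 1.18 and 1.85 (SE 0.18), and KIF11, the kinesin that pushes the spindle poles apart, by 1.26 and 1.47 (SE 0.23).

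All 7 genes of the central spindle and cytokinesis rose as well. ANLN had the largest rise of the set under chronic hypoxia, from 7.19, 7.09 and 7.26 to 10.14, 10.59 and 9.94, a difference of 3.04 (SE 0.21, adjusted p = 4.7e-05). Under cycling hypoxia it read 9.44, 9.59 and 8.93, a rise of 2.14. It was the member that was lower in cycling than in chronic hypoxia past the threshold, by -0.90 (SE 0.21, adjusted p = 0.018), with no overlap between these groups. KIF20A, a kinesin of the central spindle, rose from 6.04, 5.48 and 6.16 to 7.52, 8.07 and 7.62 and to 8.05, 8.09 and 7.63, or by 1.84 and 2.03 (SE 0.23). KIF23, a kinesin of the midbody, went from 6.82, 6.99 and 7.07 to 7.48, 7.58 and 7.46 and to 8.56, 8.64 and 8.22. It rose by 0.55 under chronic and 1.51 under cycling hypoxia (SE 0.12), and the direct difference was 0.97 (adjusted p = 0.0013).

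MKI67, which encodes the proliferation antigen Ki-67, rose in SK-OV-3 cells from 5.96, 6.18 and 6.18 to 8.10, 7.85 and 7.74 under chronic and 8.35, 8.47 and 7.82 under cycling hypoxia, by 1.79 and 2.11 (SE 0.18). TOP2A, topoisomerase II alpha, which untangles the chromosomes, rose by 1.00 and 0.89 (SE 0.11). FOXM1, the transcription factor that drives many genes of this set, stayed dim: it was under 5 on all control arrays, on all chronic arrays and on 2 of 3 cycling arrays. Its log2 differences of 0.60 and 0.74 (SE 0.24) were not called (adjusted p = 0.087 and 0.06). Even where they rose, most genes stayed below the other lines. Compared with PC-3 control cells, 40 of the 44 genes were lower in mean level in chronic and 31 in cycling SK-OV-3 cells, with medians of -0.86 and -0.56.

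In the direct comparison of the hypoxic groups of SK-OV-3 cells, 11 genes were higher (25.6%) and 1 was lower in cycling than in chronic hypoxia, with a median of 0.31, against 18.2% and 16.2% of all genes. Beside FAM83D, CENPA, KIF23, PLK1, CENPN and CCNB1, the higher genes were CDC25C, KIF2C, TPX2, DLGAP5 and AURKA, with differences of 0.58 to 0.78. This count rested on few arrays. It fell to 4 when the cycling replicate 1 was left out, to 3 without the cycling replicate 2, and to 7, 7 and 6 without the chronic replicates 1, 2 and 3. It rose to 18 without the cycling replicate 3.

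**Figure D4:**
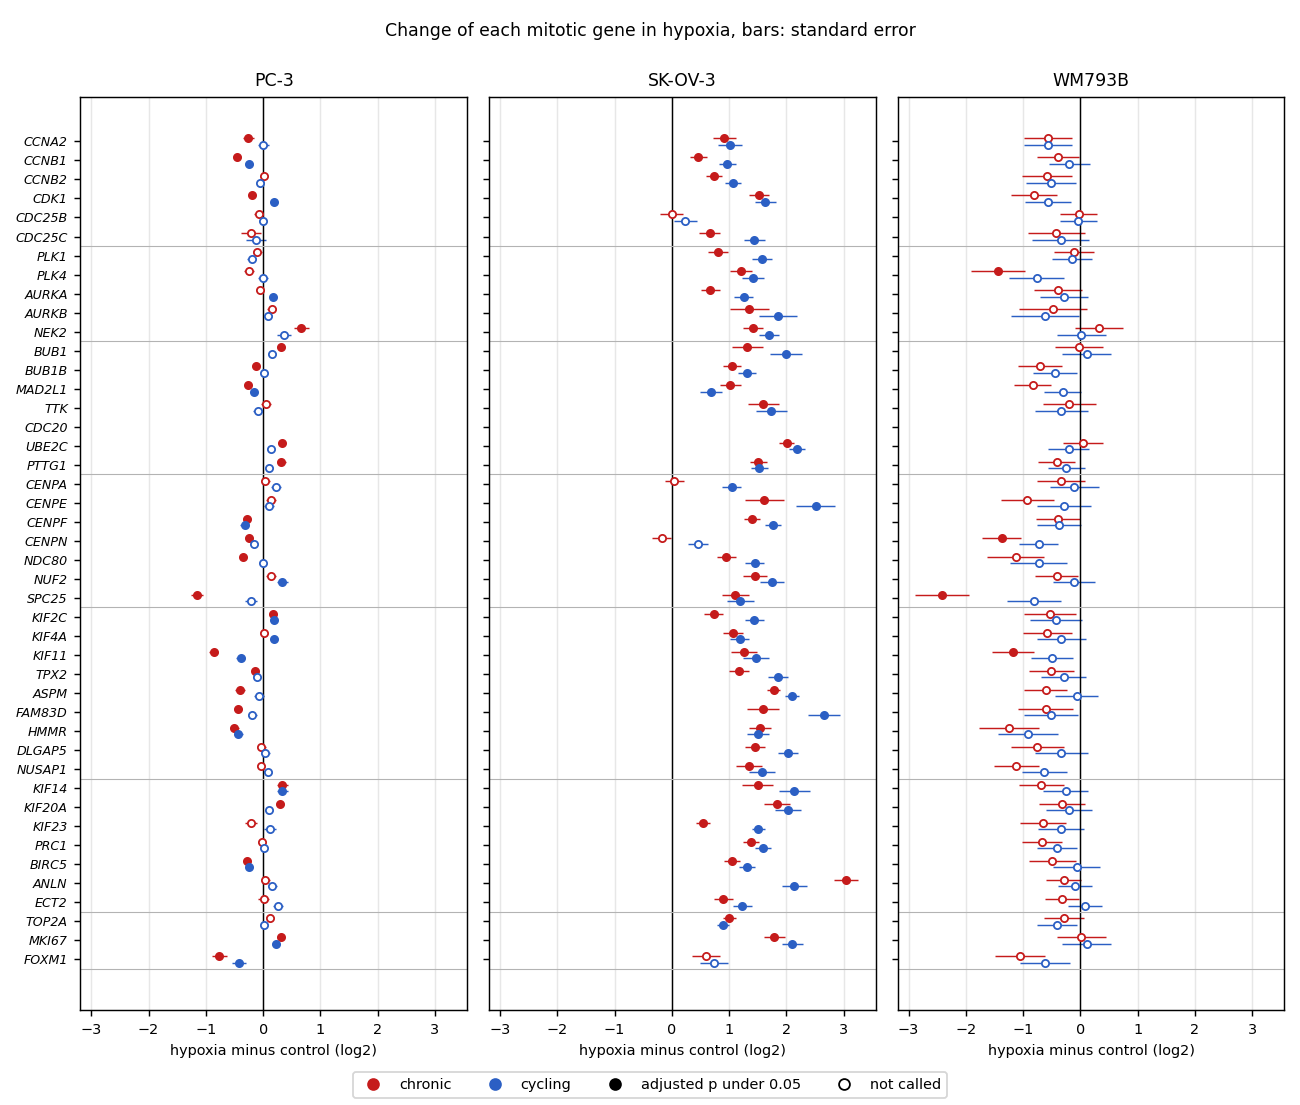
Log2 difference between hypoxia and control (x axis, the same scale in each panel) for the 43 tested mitotic genes (y axis, by role) in PC-3, SK-OV-3 and WM793B cells under chronic (red) and cycling (blue) hypoxia, with the standard error as bars and filled points for an adjusted p under 0.05. In SK-OV-3 cells 39 and 40 genes are called higher, in PC-3 cells most points lie within 0.5 of 0 and in WM793B cells the bars are wide, with standard errors of 0.30 to 0.59.

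In PC-3 cells the same genes moved little and in both directions. Under chronic hypoxia 8 of 43 genes rose (18.6%) and 16 fell (37.2%), with a median log2 difference of -0.05. These shares were close to those over all genes, of which 24.7% were higher and 39.2% lower, with a median of -0.08. By the brightest probe set of each gene, 1 called change was at least 2-fold, that of SPC25, a subunit of the NDC80 complex that joins the kinetochore to microtubules. It read 7.63, 7.78 and 7.88 in control cells, 6.49, 6.55 and 6.76 under chronic and 7.71, 7.45 and 7.47 under cycling hypoxia. It fell by 1.16 (SE 0.10, adjusted p = 6.3e-05) under chronic hypoxia, with no overlap. KIF11 went from 7.90, 7.83 and 7.87 to 6.85, 6.98 and 7.17 under chronic and 7.51, 7.50 and 7.42 under cycling hypoxia. It fell by 0.87 and 0.39 (SE 0.08, adjusted p = 6.1e-05 and 0.0056). FOXM1 went from 7.39, 7.29 and 7.42 to 6.36, 6.67 and 6.78 and to 6.76, 7.04 and 7.04, a fall of 0.76 and of 0.42 (SE 0.13, adjusted p = 0.0014 and 0.03).

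HMMR, a microtubule-binding protein of the spindle, CCNB1, FAM83D and ASPM also fell under chronic hypoxia in PC-3 cells, by 0.50, 0.46, 0.44 and 0.41 (SE 0.07 to 0.09). CENPF fell by 0.28 under chronic and 0.32 under cycling hypoxia (SE 0.08). The kinase NEK2, which separates the centrosomes, rose most, from 8.44, 8.06 and 8.19 to 8.91, 9.05 and 8.74 under chronic hypoxia, by 0.67 (SE 0.13, adjusted p = 0.0027). Other rises in chronic hypoxia were small, at 0.34 for KIF14, 0.33 for UBE2C, 0.32 for PTTG1, 0.31 for BUB1, 0.29 for KIF20A and 0.17 for KIF2C. PLK1, AURKA and TOP2A were not called there, with differences of -0.10, -0.05 and 0.11 (SE 0.08, 0.05 and 0.07). All 4 genes called of the kinetochore group fell, SPC25, NDC80, CENPF and CENPN, and none of that group rose.

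Probe sets of 1 gene did not always move together in PC-3 cells. For MKI67, the brightest probe set read 7.31, 7.28 and 7.36 in control and 7.56, 7.54 and 7.77 in chronic hypoxia, a rise of 0.31 (SE 0.06, adjusted p = 0.0045). The 3 other probe sets of this gene gave -0.17 (SE 0.14, adjusted p = 0.33), -1.22 (SE 0.22, adjusted p = 0.002) and -1.82 (SE 0.27, adjusted p = 0.0008). In SK-OV-3 cells all 4 rose under chronic hypoxia, by 1.53 to 1.79. BIRC5, which encodes survivin of the chromosomal passenger complex, fell by 0.28 under chronic hypoxia on its brightest probe set and by 1.11 (SE 0.11, adjusted p = 0.00012) on another. CENPN fell by 0.25 on its brightest probe set and by 1.55 and 1.22 (SE 0.15 and 0.11) on the other two tested. MAD2L1, a protein of the spindle checkpoint, fell on 2 of its probe sets, by 0.26 and 0.38, and was higher by 0.37 (adjusted p = 0.012) on the third. For CDK1, the brightest probe set fell by 0.19 (SE 0.05, adjusted p = 0.014) under chronic hypoxia, while the other 3 gave values of 0.02 to 0.52 that were not called.

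Under cycling hypoxia 7 genes rose and 7 fell in PC-3 cells (16.3% each), with a median of 0.01, against 22.7% and 26.0% of all genes. HMMR was lowest, with a fall of 0.43 (SE 0.08, adjusted p = 0.0044), followed by FOXM1, KIF11 and CENPF. CCNB1 fell by 0.25, BIRC5 by 0.25 and MAD2L1 by 0.17. The genes that rose were NUF2, KIF14, MKI67, KIF4A, CDK1, KIF2C and AURKA, by 0.17 to 0.34. Compared directly, 9 genes were higher (20.9%) and 2 lower (4.65%) in cycling than in chronic hypoxia, with a median of 0.09, against 29.9% and 12.7% of all genes and their median of 0.09. SPC25 led them with a difference of 0.94 (SE 0.10, adjusted p = 0.0007), then KIF11 with 0.47, CDK1 with 0.38 and NDC80 with 0.35. The lower genes were PTTG1 and UBE2C, at -0.22 and -0.19. With each array centred on its median, 15 genes were higher and none was lower. Without any 1 of the control or cycling replicates, 7 to 9 genes were called under cycling hypoxia, and without any 1 of the cycling replicates or of the chronic replicates 1 and 2, 6 or 7 were called in the direct comparison. With the spread pooled over all 27 arrays, 4 genes were past the threshold under chronic hypoxia, 0 under cycling hypoxia and 1 in the direct comparison.

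In WM793B cells the result turned on replicate 3 of the hypoxic groups. With all arrays, 4 of 43 genes (9.3%) were lower under chronic hypoxia than in control cells and none was higher, with a median of -0.52, against 24.0% and 17.9% of all genes. These were SPC25, PLK4, the kinase of centriole duplication, CENPN and KIF11. Among all 75 tested probe sets of the set, 9 were lower and none was higher. SPC25 read 8.57, 8.32 and 8.32 in control cells, 5.64, 5.16 and 7.17 under chronic hypoxia and 7.43, 7.46 and 7.87 under cycling hypoxia. It fell by 2.41 (SE 0.47, adjusted p = 0.0063) under chronic hypoxia, and the groups did not overlap even with replicate 3. PLK4 read 8.16, 8.09 and 8.08 in control cells and 6.23, 6.05 and 7.75 under chronic hypoxia, a fall of 1.43 (SE 0.47, adjusted p = 0.048). CENPN fell by 1.37 (SE 0.34) and KIF11 by 1.18 (SE 0.36), with adjusted p = 0.017 and 0.039. The count of 4 fell to 1 without the chronic replicate 1 or 2 or the control replicate 2, and to 2 without the control replicate 1 or 3 or the cycling replicate 1 or 2.

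Without replicate 3 of chronic hypoxia, 29 of 43 genes were lower and none was higher, with a median of -1.02, against 23.4% of all genes that were lower in the same fit. SPC25 then fell by 3.00 (SE 0.20, adjusted p = 0.00025), PLK4 by 1.97, HMMR by 1.89, CENPN by 1.76, NDC80 by 1.70, KIF11 by 1.64, NUSAP1 by 1.63 and FOXM1 by 1.57. All 9 spindle motors and assembly factors, 6 of 7 genes of cytokinesis and 5 of 7 of the kinetochore were then lower, as were 4 of 6 cyclins and their regulators, 3 of 6 genes of the checkpoint and anaphase-promoting complex, 1 of 5 kinases and 1 of 3 chromosome and transcription factors (FOXM1). In the fit without this array CDK1 fell by 1.30 (SE 0.19), CCNB1 by 0.80 (SE 0.23) and CENPF by 0.83 (SE 0.24). MKI67, BUB1, PLK1, TOP2A, UBE2C and NEK2 were not called, with differences of -0.12 to -0.65. Of the other genes not called, CDC25B had -0.32, and the rest lay between -0.72 (TTK) and -1.10 (AURKB, SE 0.45). Among these were AURKA at -0.85 (SE 0.29) and KIF20A at -0.76 (SE 0.27). With all arrays the errors were wide: CDK1 read 11.12, 11.10 and 11.15 in control cells and 9.76, 9.88 and 11.29 under chronic hypoxia, a difference of -0.82 (SE 0.40, adjusted p = 0.15). CCNB1 read 10.59, 10.60 and 10.66 and 9.81, 9.83 and 11.04, a difference of -0.39 (SE 0.36, adjusted p = 0.44). MKI67 read 8.05, 8.17 and 7.98 in control cells and 7.65, 7.57 and 9.03 under chronic hypoxia, a difference of 0.01 (SE 0.43).

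Under cycling hypoxia none of the 43 genes was called in WM793B cells by its brightest probe set (limma, 0 genes also at an unadjusted p under 0.05). The median was -0.33, and 9.75% of all genes were higher and 9.39% lower. Among all 75 tested probe sets of the set, 1 was called lower. Standard errors ran from 0.30 to 0.59. TPX2 read 10.89, 10.94 and 10.91 in control cells and 10.48, 10.38 and 11.01 under cycling hypoxia, a difference of -0.29 (SE 0.40, adjusted p = 0.68). AURKA read 10.65, 10.65 and 10.73 and 10.07, 10.07 and 11.02, with replicate 3 above all controls. Between cycling and chronic hypoxia none was called either (1 gene at an unadjusted p under 0.05), with a median of 0.23, against 9.56% of all genes higher and 6.33% lower. Without the chronic replicate 3, 14 genes were higher in cycling than in chronic hypoxia (11.3% of all genes in that fit), led by SPC25 with 2.18 (SE 0.20, adjusted p = 0.003), and 4 genes were lower in cycling hypoxia than in control cells (12.0%). With replicate 3 left out of both hypoxic groups, 39 genes were lower in chronic and 30 in cycling hypoxia than in control cells and 24 were higher in cycling than in chronic hypoxia, none the other way, against 24.7%, 11.2% and 13.0% of all genes in that fit. The chronic replicate 3 was singled out by its levels of these same genes, so the counts without it are descriptive. Leaving out both arrays was likewise chosen after they had been seen.

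The responses themselves differed between SK-OV-3 cells and the other lines. The difference of the log2 responses was tested in 1 fit over all 27 arrays. For each gene that fit uses 1 spread for all lines, although the hypoxic arrays of WM793B cells varied most. The SD of the set's median level was 0.79 in chronic and 0.43 in cycling WM793B cells, and at most 0.25 in the other groups. Under chronic hypoxia 33 of 43 genes (76.7%) responded more positively in SK-OV-3 than in PC-3 cells and none less, with a median difference of 1.30, against 33.9% of all genes. Under cycling hypoxia this held for 40 genes (93.0%), with a median of 1.45, against 22.4%. The largest differences were those of ANLN under chronic hypoxia, 3.00 (SE 0.31, adjusted p = 5.9e-08), and of FAM83D under cycling hypoxia, 2.85 (SE 0.45, adjusted p = 4.3e-05). Between WM793B and SK-OV-3 cells, 40 genes (93.0%) responded lower in WM793B under chronic and 42 (97.7%) under cycling hypoxia, with medians of -1.79 and -1.89, against 28.9% and 20.6% of all genes. SPC25 led under chronic hypoxia with -3.52 (SE 0.44, adjusted p = 1.0e-06), and FAM83D under cycling hypoxia with -3.17 (SE 0.45, adjusted p = 1.4e-05). CDC25B was called in none of these comparisons or of those between WM793B and PC-3 cells, with differences between -0.27 and 0.24 (SE 0.32).

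Between WM793B and PC-3 cells the responses differed for 5 genes under chronic hypoxia, all lower in WM793B, against 17.4% of all genes. These were SPC25, PLK4, CENPN, NUSAP1 and KIF14, at -1.02 to -1.25. The shared spread understates the error in WM793B cells here. Under chronic hypoxia the SD of NUSAP1 was 0.88 in WM793B and 0.09 in PC-3 cells, and that of KIF14 0.84 and 0.15. NUSAP1 and KIF14 were not called under chronic hypoxia in the fit of the WM793B arrays alone. Without the WM793B chronic replicate 3 the number of genes that differed was 34, against 18.7% of all genes in that fit. It was 1 without the WM793B chronic replicate 1 or 2 or the PC-3 chronic replicate 3. It was 2 without the PC-3 control replicate 1 or 2 or the WM793B control replicate 1. Under cycling hypoxia none differed (limma, 0 genes also at an unadjusted p under 0.05), against 10.9% of all genes that were lower. Without the WM793B chronic replicate 3 the number was 3 (12.0%). Across the 43 genes, the chronic responses of PC-3 and WM793B cells, which share no array, correlated with a Pearson r of 0.73 and a Spearman rho of 0.59. For SK-OV-3 against PC-3 the values were 0.25 and 0.34, and for WM793B against SK-OV-3 they were 0.14 and 0.10. Genes are not independent replicates, and these values describe the set.

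Other genes of the same machinery were counted by lists. Of 27 tested genes among 33 further kinetochore and centromere genes, 11 rose and 2 fell in SK-OV-3 cells under chronic hypoxia, with a median of 0.43. Of all genes 25.1% were higher and 25.0% lower there. HJURP, the chaperone that loads CENPA, rose most, by 1.53 (SE 0.20, adjusted p = 0.00081), and MIS12 fell by 1.68 (SE 0.15, adjusted p = 0.00015). In PC-3 cells 2 of these 27 rose and 18 fell, against 24.7% and 39.2% of all genes. Their median was -0.73, and CENPM fell by 1.76 (SE 0.06, adjusted p = 1.1e-06). In WM793B cells 1 rose and 15 fell with all arrays (median -1.13), against 17.9% and 24.0% of all genes. Without the chronic replicate 3, 23 fell, against 23.4% of all genes. Of 11 tested genes of the spindle and cytokinesis outside the set, 9 rose in chronic and 11 in cycling hypoxia in SK-OV-3 cells (medians 0.80 and 1.28), led by the kinesin KIFC1 with 1.53 and 2.01 (SE 0.25). Of all genes 25.1% and 19.8% were higher in these comparisons. In PC-3 cells 2 of these fell under chronic hypoxia, against 39.2% of all genes. None was called there under cycling hypoxia, where 22.7% of all genes were higher and 26.0% lower. In WM793B cells none was called in either. Of all genes 17.9% were higher and 24.0% lower there under chronic hypoxia, and 9.75% and 9.39% under cycling hypoxia. Without the chronic replicate 3, 9 fell in WM793B cells under chronic hypoxia, against 23.4% of all genes.

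Condensin, cohesin and separase genes were split in SK-OV-3 cells, where 9 of 19 rose and 4 fell under chronic hypoxia (25.1% and 25.0% of all genes). ESPL1, which encodes separase, rose by 1.46 (SE 0.15, adjusted p = 0.00023), and WAPL, which releases cohesin from DNA, fell by 0.69 (SE 0.08). In PC-3 cells 2 of these 19 rose and 11 fell (24.7% and 39.2% of all genes). In WM793B cells 8 fell and none rose (24.0% and 17.9% of all genes), and 13 fell without the chronic replicate 3 (23.4%). Only 6 genes of the anaphase-promoting complex list were tested. FZR1, which encodes the activator CDH1 of that complex in G1, rose in PC-3 cells by 1.98 (SE 0.13, adjusted p = 1.3e-05) under chronic hypoxia, and ANAPC13 fell by 1.14. Among 17 genes of entry into mitosis and control of G2 to M, 10 rose and none fell in SK-OV-3 cells under chronic hypoxia (25.1% and 25.0% of all genes). In PC-3 cells 5 of these rose and 9 fell (24.7% and 39.2% of all genes). In WM793B cells 3 rose and 10 fell (17.9% and 24.0% of all genes). Without the chronic replicate 3, 3 rose and 13 fell, and 23.4% of all genes were lower. The inhibitor of cyclin-dependent kinases CDKN1A rose by 2.41 in PC-3 cells (SE 0.05, adjusted p = 3.2e-07), and the repressor E2F7 rose by 2.52 in SK-OV-3 cells (SE 0.32, adjusted p = 0.00071).

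The genes of the G1 to S transition and replication are made earlier in the cycle than the mitotic genes. Of 20 such genes, 19 fell and none rose in PC-3 cells under chronic hypoxia, against 39.2% and 24.7% of all genes. Their median was -1.54, where the mitotic genes had a median of -0.05. In SK-OV-3 cells 4 rose and 2 fell, against 25.1% and 25.0% of all genes. The median was 0.08 there, where the mitotic genes had a median of 1.21. In WM793B cells all 20 fell, with a median of -2.51, against 24.0% of all genes. All 20 also fell without the chronic replicate 3 (median -2.88, 23.4% of all genes). Under cycling hypoxia 17 fell in PC-3 cells (median -0.89), against 26.0% of all genes. In WM793B cells 11 fell (median -1.29), against 9.39%, with 19 called lower in the fit without the chronic replicate 3, against 12.0%. In SK-OV-3 cells 2 rose and 1 fell (median 0.05), against 19.8% and 16.3% of all genes. The 7 hypoxia targets tested rose in every line under chronic hypoxia, with medians between 2.29 and 2.68. Of all genes 24.7%, 25.1% and 17.9% were higher there in PC-3, SK-OV-3 and WM793B cells. No test compared the lists with each other.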

How the data were processed

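RNA from cultured cells was hybridized to Human Genome U133 Plus 2.0 arrays (27 arrays, 9 groups of 3). The authors processed the scans with GC-RMA (correction for nonspecific binding from the base content of the probes, normalization of the arrays to each other, 1 summary per probe set) and deposited the log2 values. The number of arrays limits the precision. Background correction can compress low values, and 5 (log2) is a cut for dim signals chosen here. For BUB1 and CENPE, under it on all SK-OV-3 control arrays, folds are also given against that level. No such fold is given for AURKB and FOXM1, which were also dim in SK-OV-3 control cells. The study's own background estimate is given without a scale and was not used. Gene names come from a platform annotation of 2016: 41097 probe sets had 1 symbol, 1801 several and 11777 none. Groups were taken from the sample labels, which call the replicates biological; where cultures were not independent, p-values measure the spread between these samples.

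The 19800 probe sets that differed at least 1.5-fold from their median in at least 20% of arrays were tested with limma 3.58.1 (R 4.3.3), which stands in for the random variance t-test of the methods. Each comparison within a line used the 9 arrays of that line, and responses and control levels of different lines were compared in 1 fit of 27 arrays. P-values were Benjamini-Hochberg adjusted over all filtered probe sets, and the threshold was 0.05. Shares over all genes refer to 9162 genes whose brightest probe set passed the filter. Named genes were 11 fixed genes (CCNB1, CDK1, PLK1, AURKA, BUB1, CENPF, KIF20A, FAM83D, TOP2A, MKI67, FOXM1) and, per comparison, the 8 called members with the largest and the 4 with the smallest or opposite difference; others, such as CDC20, CENPA and CENPN in SK-OV-3 cells, were named after their values had been seen. The members and lists were chosen with earlier results of these data known. Alternatives were no variation filter, a filter on dim probe sets, another normalization or centring, another reading of genes with several probe sets, a trended prior, 1 fit over all arrays, the F-test of the methods with a 2-fold limit, the replicate number as a block, and each array left out in turn. The fits were tested on simulated data. Motifs were searched with Python 3.11.15. Among the listed genes not analysed here were CENPP, ANAPC1, UBE2D1, CIT and CA9.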

Additional observations from a re-analysis of the deposited data

Results flagged for a closer look

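The response to hypoxia of the mitotic genes differed between SK-OV-3 cells and the other lines, by the test of the difference itself. Under chronic hypoxia 33 genes responded more positively in SK-OV-3 than in PC-3 cells, against 33.9% of all genes. ANLN was the farthest apart (3.00). In WM793B cells 40 genes responded lower than in SK-OV-3 cells, against 28.9% of all genes, with SPC25 the farthest apart (-3.52). Between WM793B and PC-3 cells 5 genes differed, all lower in WM793B, again with SPC25 the farthest apart (-1.25). This was a smaller share than the 17.4% of all genes that were lower there. The count ran from 1 to 34 with each array left out in turn. Under cycling hypoxia 40 differed between SK-OV-3 and PC-3 cells and 42 between WM793B and SK-OV-3 cells. FAM83D was the farthest apart in both (2.85 and -3.17). Of all genes 22.4% and 20.6% differed in these directions. The lines also differed in medium, WM793B also in serum, and in the control level of these genes, and the part of either was not tested.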

How the results depend on the processing

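With the replicate number as a replicate block, 5 genes instead of 12 differed between the hypoxic groups of SK-OV-3, and no other count moved by over 1.5 times. Same-numbered arrays did not deviate together in every pair (correlations of -0.09 to 0.29), so the numbers were not taken to pair the samples. These correlations ran from -0.05 to 0.15 in PC-3, from -0.09 to 0.16 in SK-OV-3 and from -0.02 to 0.29 in WM793B cells. A shared effect of the replicate number in WM793B cells is thus not excluded. Without the variation filter, the counts were 5 for PC-3 cycling hypoxia against control and 5 against chronic hypoxia, 3 for SK-OV-3 cycling against chronic hypoxia, 1 for WM793B chronic hypoxia and 1 for the chronic responses of WM793B and PC-3 cells. Plain probe sets alone gave 4, and a second quantile normalization 7, for the cycling against chronic comparisons in SK-OV-3 and in PC-3 cells. In 1 fit over all arrays the counts in PC-3 cells were 4, 0 and 1 (chronic, cycling, cycling against chronic) and in WM793B cells 16, 2 and 2. By the F-test of the methods with a 2-fold limit they were 1, 0 and 0 in PC-3 cells, 2 in the cycling against chronic comparison of SK-OV-3 cells, and 2 under chronic hypoxia and 1 against cycling hypoxia in WM793B cells. Without both hypoxic replicates 3 of WM793B cells they were 39, 30 and 24 in this line, and 39 and 21 for the chronic and cycling responses against PC-3 cells.

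Leaving out each array in turn gave 19 to 24 genes for PC-3 chronic hypoxia, 7 to 14 for cycling hypoxia and 6 to 13 between them. In SK-OV-3 cells the range was 36 to 40, 39 to 40 and 3 to 18, and in WM793B cells 1 to 29, 0 to 4 and 0 to 14. For the responses it was 30 to 33 and 33 to 40 between SK-OV-3 and PC-3 cells (chronic and cycling), 35 to 42 and 40 to 42 between WM793B and SK-OV-3 cells, and 1 to 34 and 0 to 3 between WM793B and PC-3 cells. In WM793B cells the highest counts came without the chronic replicate 3. In PC-3 cells the cycling count was 7, 8 or 9 without any of 6 arrays, the 3 cycling and the 3 control replicates.

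With the mean of all probe sets of a gene, CDK1 (0.11) and MKI67 (-0.73) turned direction under chronic and MKI67 (-0.13) under cycling hypoxia for PC-3, and on its plain probe set ASPM did (0.23) under chronic hypoxia. Of 5937 values of named genes under the alternatives, 456 lost and 74 gained the threshold. The causes were not tested. With 3 arrays per group, precision was lowest in WM793B. Of the genes under the dim level in SK-OV-3 control cells, BUB1 and CENPE have folds against that level beside their measured differences. AURKB and FOXM1 have none.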
